A study of Rattus norvegicus with 43 samples.

Results

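The genes described here are 7 apolipoprotein genes of the rat, Apoa1, Apoa2, Apoa4, Apob, Apoc1, Apoc3 and Apoe, followed through liver, lung and mammary gland of animals given retinoids. They were chosen by name: every probe set (a group of short oligonucleotides that measures one transcript) whose single platform gene symbol is one of the 7 was taken, which gave 15 of the 8740 probe sets left after 59 control probe sets were put aside, and 7 of 4736 named genes. Apob has 5 of the 15, Apoc3 has 3, Apoa1 and Apoe have 2 each, and Apoa2, Apoa4 and Apoc1 have 1 each. Where a gene had several, the probe set with the highest liver signal stands for it and the others are given beside it.

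The animals were female rats of the outbred Sprague-Dawley stock, and treatment lasted 7 days from an age of 100 days. One group received the diet alone. Targretin, also called bexarotene, binds the retinoid X receptors and was gavaged daily at 60 mg per kg body weight. 9-cis-retinoic acid (9cRA), which binds retinoic acid receptors as well as retinoid X receptors, was mixed into the diet at 100 mg per kg. 4-hydroxyphenylretinamide (4HPR), a synthetic retinamide, was mixed into the diet at 782 mg per kg. Doses and routes therefore differed between agents, and a control gavaged without agent is not among the groups. The 43 arrays made 12 groups of 3 or 4: Targretin had 3 arrays in each organ, diet lung and 4HPR mammary gland had 3, and the other groups had 4. Whole organs were used, so a lower signal from fewer cells of a type and one from less RNA per cell cannot be told apart. Whether replicate arrays stand for different rats is not stated in the labels, nor whether organs of the same array number come from the same rat. The p-values measure only the spread between arrays.

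Apolipoproteins are the protein part of lipoproteins, the particles that carry lipid in blood. Apoa1 and Apoa2 are the main proteins of high-density lipoprotein, Apob is the structural protein of very-low-density and low-density lipoprotein, Apoc1 and Apoc3 are small exchangeable proteins that slow the removal of triglyceride-rich particles, Apoe is the ligand by which remnant particles are taken up, and Apoa4 travels on chylomicrons and high-density lipoprotein. The liver makes most of them, whereas Apoe is also made by macrophages and many other cells. Retinoid X receptors pair with several nuclear receptors that act at apolipoprotein genes, and bexarotene is known in patients for raising plasma triglyceride.

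The values are MAS5 signals, in which each array was scaled to the same trimmed mean, between 1501.78 and 1503.29 on all arrays. Changes are given as log2 of the signal plus 38.1, and testing within an organ required a signal above the array's 40th percentile on 3 or more arrays. This let through 15 of the 15 apolipoprotein probe sets in liver, 12 in mammary gland and 10 in lung; Apoa4 was tested only in liver. A change passes at an adjusted p under 0.05 in limma, with Benjamini-Hochberg adjustment over all probe sets tested in the organ. Some counts are also given at an unadjusted p under 0.05. The share of all probe sets at that threshold is not given, so these counts are a description only. Hepatocyte markers were present outside the liver: 15 or 16 of 16 markers exceeded the 40th percentile on every array of diet mammary gland, and so did 16 of 16 on diet lung array 2, against 5 of 16 on the other diet lung arrays. None of the 16 markers was listed at 0 on any array, and the lowest value was 6.7. Diet lung array 2 and 4HPR lung array 3 stood apart by these markers. Diet liver array 2, 4HPR liver array 4, Targretin lung array 2 and Targretin mammary gland array 3 had been put in doubt by earlier results of the same data. Several results that rest on these arrays are also given without them.

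In the untreated rats the liver had the highest signal of nearly every apolipoprotein. Liver exceeded lung by 5.49 ± 0.27 (SE) in log2 units for Apoa1, 6.74 ± 0.59 for Apoa2, 4.89 ± 0.47 for Apoa4 (at least 10.5-fold against the 40th percentile, which Apoa4 reached on no lung array with diet), 6.37 ± 0.50 for Apoc1, 5.73 ± 0.48 for Apoc3, 5.52 ± 0.40 for Apob and 1.80 ± 0.23 for Apoe. Of the 15 probe sets, 14 passed as higher in liver than in lung, the exception being the weak Apob probe set M14952mRNA_at, where 53.8% of all 6921 probe sets tested differed and 15.9% were higher in liver. Against mammary gland, 13 of 15 passed as higher in liver, where 57.8% of all probe sets differed and 24.7% were higher in liver. Apoe was the member that broke the order: its probe set X04979_at gave 95612 ± 13303 (SD, n = 4) in diet liver and 97996 ± 9067 (SD, n = 4) in diet mammary gland, a log2 difference of -0.04 ± 0.21 (SE; limma adjusted p = 0.886), with overlapping groups. The second Apoe probe set, S76779_s_at, did differ, with 91994 ± 10029 in liver and 28653 ± 6809 in mammary gland (SD, n = 4 each; log2 difference 1.71 ± 0.22, limma adjusted p = 1.93e-08), so the liver to mammary gland ratio of Apoe depended on the probe set.

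Mammary gland stood between liver and lung for most members. Apoa1, Apoa2, Apoc1, Apoc3, Apoe and Apob passed as higher in diet mammary gland than in diet lung, by 0.91 ± 0.27, 3.37 ± 0.59, 3.43 ± 0.50, 1.76 ± 0.48, 1.84 ± 0.23 and 1.47 ± 0.40 in log2 units, where 41.9% of all probe sets differed and 15.8% were higher in mammary gland. Diet lung array 2 was high among the diet lung arrays, for Apoa2 at 3078 beside 272 and 124. The sizes of the differences from lung are given with that array only. In the 43 fits that each left out 1 array, 14 probe sets passed between liver and lung each time, and 9 to 11 between mammary gland and lung. Apoa4 was at the bottom of the scale in both, with means of 91.8 and 90.6 and a difference of -0.03 ± 0.47 (limma adjusted p = 0.964). The hepatocyte markers had the same order. Their median level, as a percent of the diet liver mean, was 4.48 to 7.35 on the diet mammary gland arrays and 0.380 to 3.59 on the diet lung arrays, and their part in the order of the apolipoproteins was not tested.

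In liver, Apoa1, the structural protein of high-density lipoprotein, had a lower signal with the retinoids than with diet alone. With diet alone, the Apoa1 probe set J02597cds_s_at gave 21431, 25368, 26709 and 22319. It gave 17322, 17914 and 18006 with Targretin, 15953, 16852, 13276 and 14603 with 9cRA, and 11282, 16948, 11771 and 13989 with 4HPR. Every treated liver lay below every diet liver, and the groups of 9cRA and 4HPR overlapped each other. The change against diet was -0.66 ± 0.13 (SE) log2 units with 9cRA, which is 63.4% of the diet level (limma adjusted p = 0.00854), and -0.84 ± 0.13 with 4HPR, which is 55.9% (adjusted p = 0.00361). With Targretin it was -0.43 ± 0.14, or 74.4%, and missed the threshold (limma adjusted p = 0.0675), although it passed at 0.0385 after quantile normalization.

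The second Apoa1 probe set, M00001_i_at, fell with all 3 agents. Its signals were 8668, 11598, 11874 and 11177 with diet and 5225, 6184 and 4704 with Targretin. They were 4914, 5395, 6453 and 5000 with 9cRA and 5595, 5791, 5176 and 7346 with 4HPR, so again no treated array reached the lowest diet array. The changes were -1.0 ± 0.16 (SE; 49.8% of diet, limma adjusted p = 0.000394) with Targretin, -0.99 ± 0.15 (50.5%, adjusted p = 0.00122) with 9cRA and -0.86 ± 0.15 (55.3%, adjusted p = 0.00496) with 4HPR. These 5 passing Apoa1 changes also passed in each of the 15 fits that left out 1 liver array. The 3 comparisons share the diet arrays, so the 3 falls are not independent of one another.

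**Figure D1:**
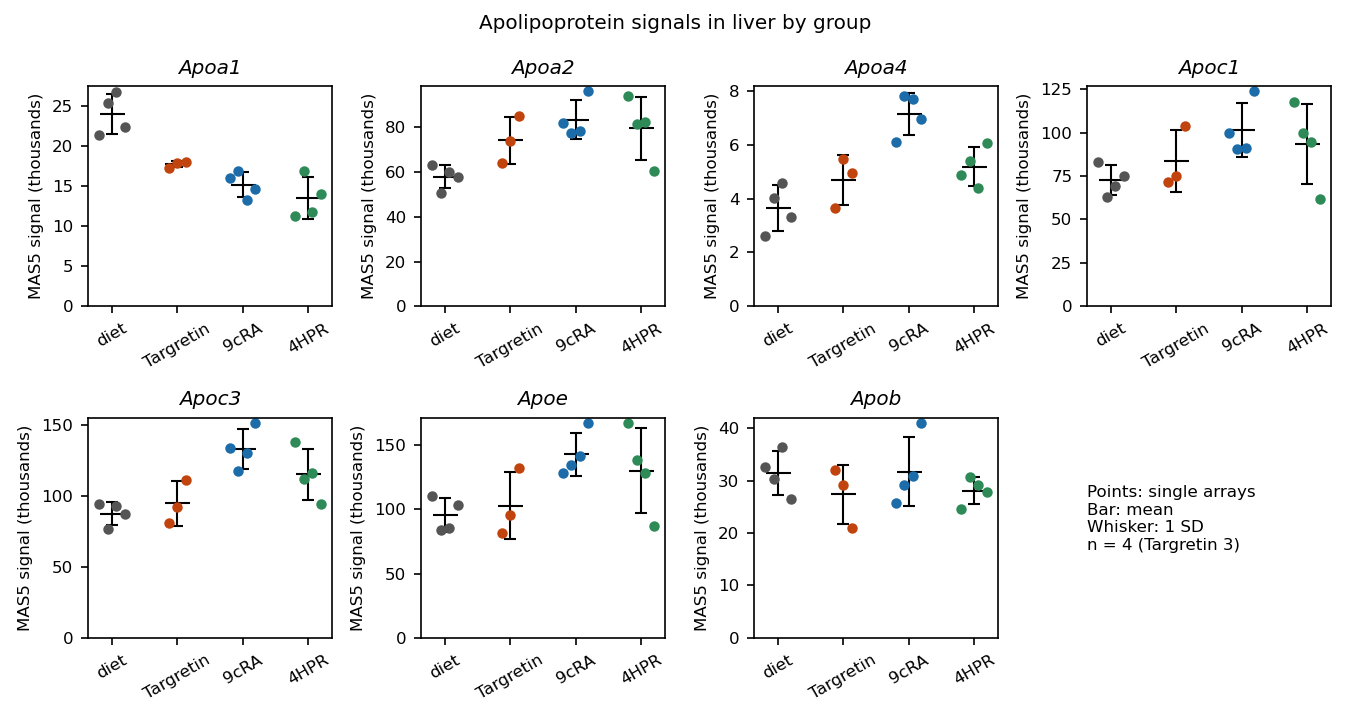
MAS5 signal on a linear axis from 0 of the probe set that stands for each apolipoprotein gene, in liver; points are single arrays, bars are means and whiskers 1 SD (n = 4, Targretin 3). Apoa1 is lower on every treated array than on any diet array, Apoa4 is highest with 9cRA at 6108 to 7800, and Apob overlaps in all groups.

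Apoa2, the second protein of high-density lipoprotein, did not follow Apoa1. Its signals were 62976, 50850, 60089 and 57680 with diet and 81834, 77527, 78378 and 96270 with 9cRA, with no overlap. The change was 0.53 ± 0.14 (SE; limma adjusted p = 0.0314), a rise to 144% of diet. With Targretin the signals were 63943, 73991 and 84978, and with 4HPR they were 93959, 81546, 82418 and 60401. Those differences of 0.35 ± 0.15 and 0.44 ± 0.14 did not pass (limma adjusted p = 0.144 and 0.0907); the Targretin arrays lay just above the diet arrays and the 4HPR arrays overlapped them. After quantile normalization the Targretin change was 0.38 and passed (limma adjusted p = 0.00171), while the 9cRA change was 0.09 and did not (0.490). The 4HPR value rested partly on the doubted array: without the 4 arrays in doubt it was 0.51 and passed (adjusted p = 0.0422). The 9cRA call was lost when diet liver array 2, 3 or 4 or 9cRA liver array 1, 3 or 4 was left out, with adjusted p-values of 0.0556 to 0.103, as it was with array number as a block (0.0649) and without the filter on low values (0.0628).

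Apoa4 had its largest liver change with 9cRA. The diet arrays gave 2629, 4031, 4579 and 3317 and the 9cRA arrays 6108, 7800, 7681 and 6959, which do not overlap. The rise was 0.99 ± 0.18 (SE), to 198% of diet (limma adjusted p = 0.00391), and it passed in each of the 15 fits without 1 array and after quantile normalization, where it was 1.01. Targretin gave 3656, 5469 and 4948, a difference of 0.37 ± 0.19 (limma adjusted p = 0.245). 4HPR gave 4869, 5380, 4399 and 6083, a difference of 0.53 ± 0.18 (limma adjusted p = 0.118). Both overlapped the diet arrays.

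Because retinoid X receptors and their partners bind repeats of a core motif, AGGTCA in its commonest form, the bases just upstream of the start sites are shown for the members found in the promoter table made from RefSeq (build GRCr8). The table held 3 of the 7 members, with 1 window for Apoa4, 2 for Apoc1 and 3 for Apoe; Apoa1, Apoa2, Apob and Apoc3 were not matched. The first window of each is printed 5′ to 3′ over the 250 bases before the annotated start, in lower case, with capitals marking the core motif on either strand. It was searched as AGGTCA together with the variants AGTTCA plus also GGGTCA and, lastly, GGTTCA.
Apoa4, chr8:55435529-55435778, plus strand: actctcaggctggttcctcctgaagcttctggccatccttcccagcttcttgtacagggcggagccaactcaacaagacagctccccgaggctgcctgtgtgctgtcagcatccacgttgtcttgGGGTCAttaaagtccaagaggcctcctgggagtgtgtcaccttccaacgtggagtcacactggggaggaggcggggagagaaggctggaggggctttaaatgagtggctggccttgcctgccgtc
Apoc1, chr1:88478306-88478555, minus strand: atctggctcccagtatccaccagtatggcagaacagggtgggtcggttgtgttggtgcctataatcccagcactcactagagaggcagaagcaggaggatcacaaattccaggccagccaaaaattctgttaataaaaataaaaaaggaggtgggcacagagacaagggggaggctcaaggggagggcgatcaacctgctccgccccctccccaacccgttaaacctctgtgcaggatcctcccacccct
Apoe, chr1:88485817-88486066, minus strand: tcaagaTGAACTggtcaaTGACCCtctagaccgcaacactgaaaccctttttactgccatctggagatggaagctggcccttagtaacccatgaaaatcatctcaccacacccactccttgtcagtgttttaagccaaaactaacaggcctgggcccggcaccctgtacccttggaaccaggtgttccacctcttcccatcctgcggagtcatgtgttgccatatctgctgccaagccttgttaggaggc
Apoa4 holds GGGTCA from position -125 to -120, counted back from the annotated start. The first Apoe window holds TGAACT at -244 to -239 and TGACCC at -232 to -227, which are AGTTCA and GGGTCA read on the other strand, and the second Apoe window, not printed, holds GGGTCA at -137 to -132. No core motif was in the third Apoe window or in either Apoc1 window. At least 1 core motif was present in 39.1% of all 33469 windows of the same length. Direct repeats of core motifs spaced by 1, 2 or 5 bases were in none of the 6 windows and in 0.194%, 0.137% and 0.326% of all windows. The matches describe letters only and say nothing on binding.

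Apoc3, which inhibits the lipolysis of triglyceride-rich lipoproteins, rose with 9cRA on 2 of its 3 probe sets, a result that depended on the scaling. The probe set J02596cds_at gave 93841, 76252, 92528 and 86977 with diet and 133374, 117048, 129863 and 151213 with 9cRA. Every 9cRA array was above every diet array, and the change was 0.60 ± 0.13 (SE), to 152% of diet (limma adjusted p = 0.0138). A second probe set, J02596cds_g_at, rose by 0.62 ± 0.12 (limma adjusted p = 0.00642). Both probe sets were made from the same sequence entry, so the 2 rises are not independent. After quantile normalization these changes were 0.08 and 0.09 and no longer passed (limma adjusted p = 0.620 and 0.653). The third probe set, rc_AI169758_at, changed by 0.26 ± 0.12 and did not pass (adjusted p = 0.237). With Targretin the probe set J02596cds_at gave 80489, 91670 and 111318, a difference of 0.10 ± 0.14 (limma adjusted p = 0.724), and with 4HPR it gave 137812, 111728, 116095 and 93945, a difference of 0.39 ± 0.13 (adjusted p = 0.133). The Targretin arrays overlapped the diet arrays, and the lowest 4HPR array was only just above the highest diet array.

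Apoc1, Apoe and Apob had no passing change against diet in liver. Apoc1 signals were 83272, 63022, 69498 and 75011 with diet and 99982, 90540, 91112 and 123711 with 9cRA, a difference of 0.47 ± 0.18 (SE; limma adjusted p = 0.139) between groups that do not overlap. Apoe (X04979_at) gave 110409, 83659, 85107 and 103274 with diet and 128063, 134576, 141502 and 167044 with 9cRA, a difference of 0.58 ± 0.18 (limma adjusted p = 0.0790), again without overlap. With 4HPR the Apoe difference was 0.42 ± 0.18 (adjusted p = 0.234), and 4HPR liver array 4, at 86916, lay within the diet range. With Targretin, Apoc1 differed by 0.19 ± 0.19 and Apoe by 0.09 ± 0.20 (limma adjusted p = 0.611 and 0.840). The second Apoe probe set, S76779_s_at, changed by 0.08 ± 0.16 with Targretin, 0.48 ± 0.15 with 9cRA and 0.36 ± 0.15 with 4HPR (adjusted p = 0.827, 0.0762 and 0.204). 4HPR liver array 4 decided several of these calls: without it Apoc1 and Apoe with both probe sets passed with 9cRA at the changes given (limma adjusted p = 0.0434 for Apoc1, 0.0212 for X04979_at and 0.0319 for S76779_s_at), the spread being shared by all liver groups, and with 4HPR the changes were 0.57 for Apoa2, 0.48 for Apoc3 and 0.60 for Apoe (adjusted p = 0.0131, 0.0440 and 0.0409).

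Apob, by its brightest probe set, overlapped between all groups. M27440_at averaged 31403 ± 4140 (SD, n = 4) with diet, 27358 ± 5655 (n = 3) with Targretin, 31713 ± 6562 (n = 4) with 9cRA and 28038 ± 2561 (n = 4) with 4HPR. The 95% confidence intervals of the log2 change were -0.57 to 0.15, -0.33 to 0.33 and -0.49 to 0.17 for Targretin, 9cRA and 4HPR. The other Apob probe sets disagreed in size and in direction, and none passed. With Targretin, U53873cds_at changed by -1.60 ± 0.94, M14952mRNA_at by -1.07 ± 0.43 and rc_AA997806_at by -0.52 ± 0.17, whereas M21842_at changed by 0.27 ± 0.51 (limma adjusted p between 0.0593 and 0.808); the groups of U53873cds_at and rc_AA997806_at did not overlap. With 9cRA the same 4 changed by -0.90 ± 0.87, -0.74 ± 0.40, -0.15 ± 0.16 and -0.88 ± 0.48 (adjusted p between 0.338 and 0.677), and of these only U53873cds_at did not overlap, at 2965 to 5099 beside 6490 to 7941 with diet. With 4HPR they changed by -1.86 ± 0.87, -1.13 ± 0.40, 0.03 ± 0.16 and -1.49 ± 0.48 (adjusted p between 0.103 and 0.929), without overlap for M14952mRNA_at. The dim probe sets among these had a diet mean of 377 for M14952mRNA_at and 1051 for M21842_at.

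Counted together in liver, 1 of the 15 probe sets passed with Targretin (lower), where 11.1% of all 6084 probe sets passed and 6.26% were lower. With 9cRA 6 of 15 passed, 4 higher and 2 lower, where 5.16% of all passed, 2.55% higher and 2.61% lower. These 6 probe sets belong to 4 genes. With 4HPR 2 of 15 passed, both lower and both Apoa1, where 2.78% of all passed and 1.59% were lower. The median change over the 15 probe sets was 0.09, 0.26 and 0.20 with Targretin, 9cRA and 4HPR, beside -0.02, -0.01 and -0.10 over all probe sets tested.

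**Figure D2:**
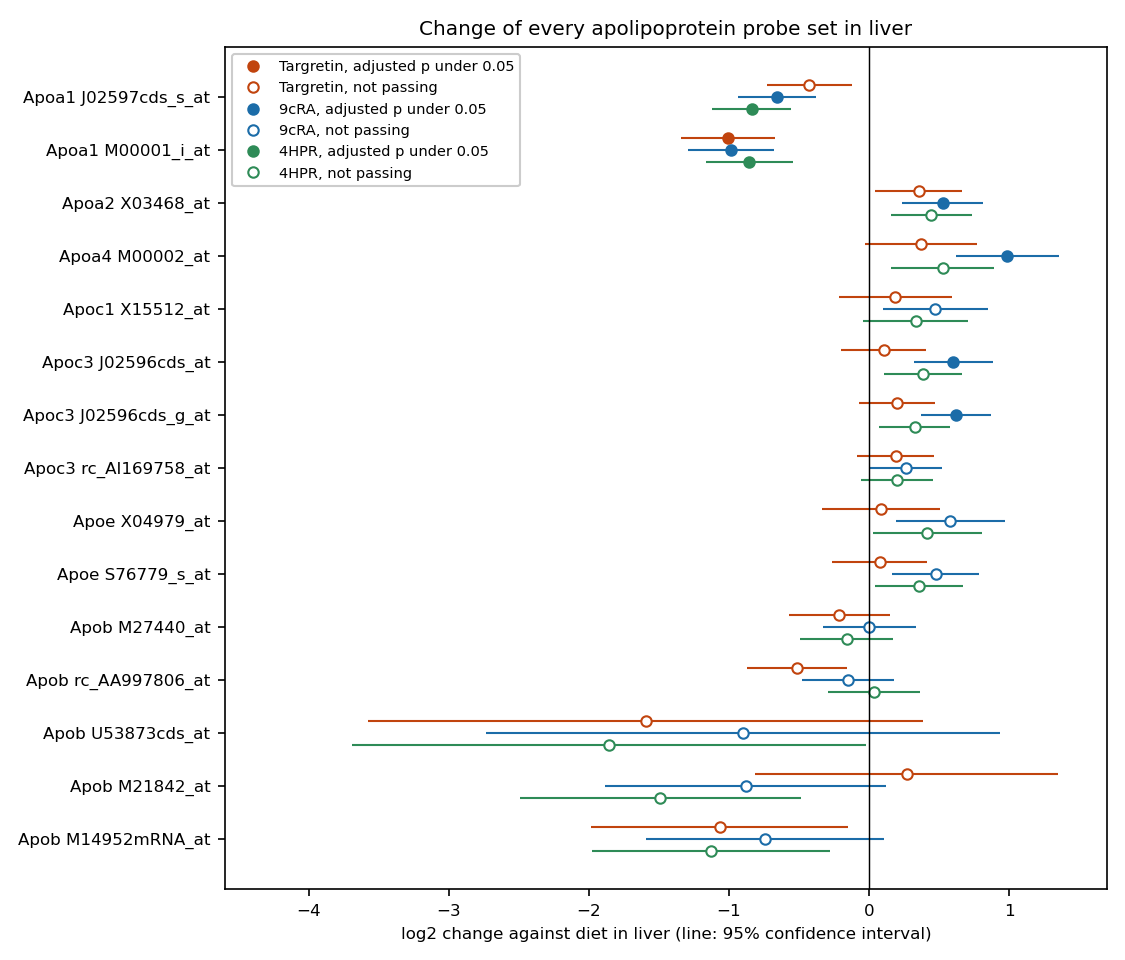
Log2 change against diet in liver for the 15 apolipoprotein probe sets; points are estimates, lines 95% confidence intervals, filled points pass at an adjusted p under 0.05 and open points do not. Both Apoa1 probe sets lie left of 0 with all 3 agents, and the 9cRA points of Apoa4 at 0.99 and Apoc3 at 0.60 and 0.62 lie right of 0. The Apob probe sets U53873cds_at, M21842_at and M14952mRNA_at have wide intervals.

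The passing liver rises of Apoa2 and Apoc3 with 9cRA were on bright probe sets, while the larger rise of Apoa4 was on a dimmer probe set. The 100 probe sets with the highest mean log2 signal over all liver arrays were taken, so the treated arrays took part in this choice. Of these, 93 had a positive change with 9cRA, with a median of 0.42, and 92 with 4HPR, with a median of 0.31. With Targretin there were 55, with a median of 0.03. Apoa2, Apoc1, Apoe with both probe sets and Apoc3 with the probe sets J02596cds_at and J02596cds_g_at were among these 100, whereas Apoa1, Apoa4 and Apob were not. The 16 hepatocyte markers summed to 638514 to 763746 per array with diet and 842846 to 1008660 with 9cRA, without overlap, and 4 of them passed as higher and 2 as lower. Quantile normalization, which gives the brightest probe sets of all arrays near-equal values by construction, brought the 9cRA rises of Apoa2 and Apoc3 below the threshold, as given above. The Apoa1 changes with 9cRA were then -0.72 and -0.96, and with 4HPR -0.95 and -0.85, all still passing. The part of the shift of bright probe sets in the rises of Apoa2 and Apoc3 was not tested.

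Across the 15 liver arrays the members fell into a few patterns, described here without a test because the arrays share treatment groups and scaling. Log2 signals of Apoc1 and Apoe had a Pearson correlation of 0.95, Apoc3 and Apoe 0.92, Apoa2 and Apoc1 0.93, and Apoa2 and Apoc3 0.90. Apoa1 ran the other way, with -0.73 against Apoa2, -0.70 against Apoc3, -0.63 against Apoe and -0.57 against Apoc1. Apob was near 0 against all of them, between -0.13 and 0.20. Among all other genes tested in liver, the closest to Apoa1 over the 15 arrays was Pctp (phosphatidylcholine transfer protein, 0.92), to Apoa2 Cyp2c7 (0.95), to Apoa4 Sult1c3 (0.85), to Apoc1 the mitochondrial gene COX1 (0.97), to Apoc3 Hpx (hemopexin, 0.96), to Apoe Alb (albumin, 0.99) and to Apob Pi4kb (0.83).

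Directly between agents, few apolipoproteins differed in liver, at doses and routes that were not matched. No apolipoprotein probe set passed between Targretin and 9cRA or between 9cRA and 4HPR, where 5.72% and 0.164% of all probe sets passed. Of the 15 probe sets, 7 and 2 had an unadjusted p under 0.05 in limma. Between Targretin and 4HPR 1 of 15 passed, where 7.87% of all did: the Apob probe set M21842_at, which was higher with Targretin (1130, 1473 and 1209) than with 4HPR (404, 303, 943 and 109) by 1.76 ± 0.51 (SE; limma adjusted p = 0.0443). The call rested on single arrays: it was lost without any one of the diet or Targretin liver arrays, 4HPR liver array 1 or 4, or 9cRA liver array 3. For Apoa1 (J02597cds_s_at) the 95% confidence interval of Targretin minus 9cRA was -0.07 to 0.53, of Targretin minus 4HPR 0.11 to 0.72, and of 9cRA minus 4HPR -0.10 to 0.46 (limma adjusted p = 0.497, 0.0954 and 0.616).

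In mammary gland, Targretin was accompanied by lower signals of every apolipoprotein gene tested except Apoe. Apoa2 gave 10150, 3995, 3092 and 7502 with diet and 182, 213 and 173 with Targretin, a change of -4.62 ± 0.48 (SE; limma adjusted p = 1.56e-05). Its 3 Targretin values were under the 40th percentile of their arrays, and set against that percentile the fall was at least 18.1-fold. Apoc1 gave 10119, 9381, 8531 and 9423 with diet and 534, 390 and 406 with Targretin, a change of -4.30 ± 0.36 (adjusted p = 1.73e-06). Apob (M27440_at) gave 2637, 1590, 1644 and 1722 with diet and 172, 297 and 277 with Targretin, a change of -2.75 ± 0.27 (adjusted p = 9.23e-06). A second Apob probe set, rc_AA997806_at, gave 1564, 1166, 927 and 964 with diet and 272, 261 and 204 with Targretin, a change of -2.05 ± 0.27 (adjusted p = 0.000190) or, since these 3 values too were under the 40th percentile, at least 3.78-fold. The dim M14952mRNA_at pointed the other way, at 245, 293, 76 and 170 with diet and 405, 282 and 170 with Targretin, with overlap (0.51 ± 0.52, adjusted p = 0.534). Apart from M14952mRNA_at, the groups did not overlap for any of these probe sets.

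Apoa1 and Apoc3 fell as well. Apoa1 (J02597cds_s_at) went from 1173, 851, 963 and 881 to 345, 324 and 333, a change of -1.42 ± 0.26 (SE; limma adjusted p = 0.00327). The 3 Apoc3 probe sets fell by 1.7 ± 0.48 (J02596cds_at), 4.20 ± 0.55 (J02596cds_g_at) and 1.87 ± 0.47 (rc_AI169758_at), with adjusted p-values of 0.0315, 0.000190 and 0.0189. The first and the third of these calls, and that of the Apoa1 probe set M00001_i_at (-2.05 ± 0.55, adjusted p = 0.0261), were lost without Targretin mammary gland array 3, with adjusted p-values of 0.0933, 0.0648 and 0.0708. All 3 were also lost without Targretin array 2 (0.101, 0.0558 and 0.0603), J02596cds_at without diet array 1 or 4 (0.0585 and 0.0614), and M00001_i_at without Targretin array 1 or diet array 2 or 3 (0.0754, 0.0617 and 0.0822). Every Targretin array lay below every diet array for these probe sets. M00001_i_at was under the 40th percentile on all 3 Targretin arrays, and its diet mean was close to that percentile, so the size of its fall is not known.

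Apoe rose by one of its probe sets and did not pass by the other. X04979_at gave 93266, 91902, 95389 and 111425 with diet and 86017, 110405 and 79919 with Targretin, overlapping groups with a difference of -0.10 ± 0.18 (SE; 95% confidence interval -0.49 to 0.29, limma adjusted p = 0.754). S76779_s_at gave 36750, 22955, 23085 and 31822 with diet and 49545, 67172 and 43192 with Targretin, a rise of 0.90 ± 0.22 (adjusted p = 0.0182). That call was lost without Targretin mammary gland array 2 (adjusted p = 0.0866) or diet mammary gland array 2 or 3 (0.0587 and 0.0598). In all, 10 of 12 probe sets passed, 9 lower and 1 higher, where 13.1% of all 6059 passed, 5.18% lower and 7.96% higher.

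The hepatocyte markers moved with these falls. Of the 16 markers 15 fell with Targretin in mammary gland, with a median change of -3.36 beside 0.11 over all probe sets, and Arg1 was the one that did not pass. Their sum was 62334 to 94730 on the diet arrays and 5919 to 8946 on the Targretin arrays, where 7 of 16 exceeded the 40th percentile on each array and Alb still gave 801 to 4322. As a percent of the diet liver mean, the markers had a median of 4.48 to 7.35 with diet and 0.381 to 0.664 with Targretin, while Apoc1 went from 11.7 to 13.9% down to 0.537 to 0.735% and Apoe (X04979_at) stayed at 83.6 to 115% with Targretin. With each array's mean log2 hepatocyte marker level as a covariate 0 of the 12 apolipoprotein probe sets passed, and the changes of Apoa2, Apoc1 and Apob were -0.06, -0.97 and -0.69 (limma adjusted p = 0.976, 0.381 and 0.558). Others changed sign or grew: Apoa1 (J02597cds_s_at) was 0.45, Apoc3 (J02596cds_at) 2.66 and Apoe (S76779_s_at) 1.97 (limma adjusted p = 0.728, 0.148 and 0.160). The covariate separated the 3 Targretin arrays from the 4 diet arrays, and the part of hepatocyte RNA in the falls was not tested beyond these values. By limma, markers of adipocytes, mammary epithelium, skeletal muscle and macrophages had 0 passing of 10, 11, 8 and 10 tested, with median changes of -0.29, 0.60, 1.05 and 0.25. Skeletal muscle markers summed to 2621 to 4180 on the diet arrays and 2572 to 63130 on the Targretin arrays. Mammary epithelium markers summed to 160939 to 248291 and 258942 to 374444. The part of tissue composition in the falls was not tested.

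**Figure D3:**
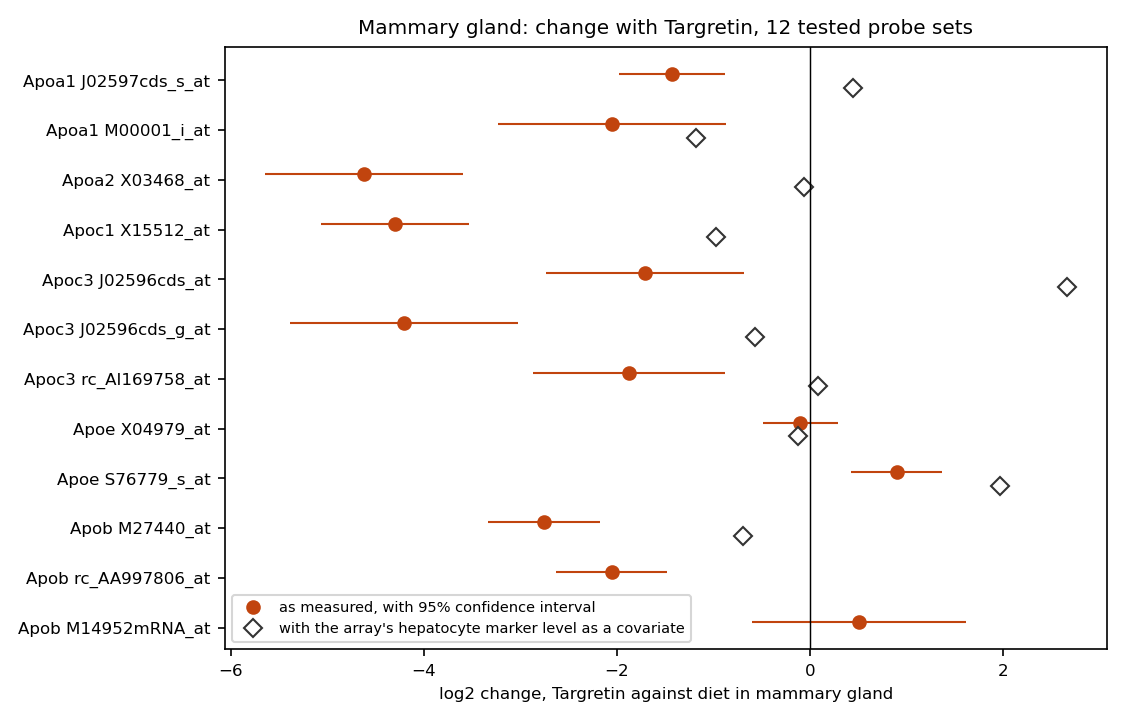
Log2 change with Targretin against diet in mammary gland for the 12 apolipoprotein probe sets tested; filled points with lines are the fit without a covariate and its 95% confidence interval, open diamonds (10 probe sets) the change with each array's hepatocyte marker level as a covariate. Apoa2, Apoc1 and Apob lie at -4.62, -4.30 and -2.75 and at -0.06, -0.97 and -0.69 with the covariate, and Apoe (X04979_at) lies near 0 in both. The Apoc3 probe set J02596cds_at lies at -1.70 and, with the covariate, at 2.66.

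With 9cRA and 4HPR 0 of the 12 probe sets passed in mammary gland, where 0% of all probe sets passed in either comparison; 3 and 0 of the 12 had an unadjusted p under 0.05 in limma. Apoc1 gave 9655, 2963, 7644 and 4363 with 9cRA and 14735, 5709 and 10729 with 4HPR, differences of -0.74 ± 0.33 and 0.05 ± 0.36 (SE; limma adjusted p = 0.248 and 0.999). Arrays of one group spread widely for Apoa2 too, from 2134 to 8209 with 9cRA. The hepatocyte marker median on the same arrays was 2.89 to 8.28% of diet liver with 9cRA and 3.75 to 9.08% with 4HPR. Compared directly, Targretin was lower than 9cRA for 5 of 12 probe sets and lower than 4HPR for 8 of 12, where 2.05% and 4.23% of all passed. For Apoc1 these differences were -3.55 ± 0.36 and -4.35 ± 0.38 (limma adjusted p = 1.62e-05 and 3.69e-06). Between 9cRA and 4HPR 0 of 12 passed, where 0.0495% of all did, and 1 had an unadjusted p under 0.05.

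In lung 0 of the 10 tested probe sets passed with any agent against diet, where 2.39% of all 5935 passed with Targretin and 0% with 9cRA and with 4HPR. At an unadjusted p under 0.05 in limma there were 0, 0 and 5 of the 10, and the share of all probe sets at that threshold is not given. Arrays of one group differed widely in lung. Apoc1 gave 4048 on diet lung array 2 and 365 and 367 on the other diet arrays, 1696, 1963, 2032 and 2151 with 9cRA, and 2380, 3931, 12943 and 2744 with 4HPR, where array 3 is the high one. Its differences from diet were 1.19 ± 0.69 with 9cRA and 2.30 ± 0.69 with 4HPR (SE; limma adjusted p = 0.534 and 0.552).

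Over the 3 agents in lung, the changes were 0.03 to 0.39 for Apoa1, 0.42 to 0.53 for the Apob probe set rc_AA997806_at and -0.30 to 0.97 for M27440_at. Apoa2 changed by -1.57 ± 0.87, 1.34 ± 0.82 and 2.60 ± 0.82 (SE) with Targretin, 9cRA and 4HPR, with overlap each time (limma adjusted p = 0.289, 0.552 and 0.552), and the 3 Apoc3 probe sets ranged from -0.91 to -0.05, 0.51 to 1.99 and 1.15 to 3.83 in the same order of agents.

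The 2 lung arrays with high Apoc1 were also those with high hepatocyte markers, at 3.59% of diet liver on diet lung array 2, beside 0.380 and 0.506% on the other diet arrays, and 12.6% on 4HPR lung array 3, beside 2.16, 3.57 and 2.59%. The sum of the markers was 41659 and 134893 on those arrays. When both were left out, an alternative added after the data were seen, 4 apolipoprotein probe sets passed with 9cRA and 4 with 4HPR, where 1.33% and 1.2% of all 5847 probe sets passed. Apoc1 was then higher by 2.30 (limma adjusted p = 0.000828) and 2.89 (7.72e-05), and Apoc3 by 1.49 (0.00795) and 2.14 (0.000333). Only 2 diet arrays remained, and each array left out had been the highest of its group for Apoc1 and Apoc3. These p-values therefore depend on that choice and are given as a description. On the remaining arrays the markers were at 1.20 to 1.87% of diet liver with 9cRA and 2.16 to 3.57% with 4HPR, against 0.380 and 0.506% with diet, and the part of hepatocyte RNA in these values was not tested.

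Apoe in lung was of another order than the other members. As a percent of its diet liver mean it was 27.8 to 29.0 with diet, 24.7 to 68.3 with Targretin, 29.5 to 40.8 with 9cRA and 22.6 to 33.1 with 4HPR, and its diet arrays gave 26579, 27267 and 27747, with no high value on array 2. Its changes were 0.45 ± 0.28, 0.30 ± 0.26 and -0.02 ± 0.26 (SE), none passing (limma adjusted p = 0.340, 0.673 and 0.99968). The high Targretin value of 65308 came from Targretin lung array 2. The second Apoe probe set, S76779_s_at, changed by 0.53 ± 0.31, 0.29 ± 0.29 and 0.39 ± 0.29, with overlap in each case (adjusted p = 0.316, 0.711 and 0.99968). Between agents in lung, Targretin minus 4HPR was -4.17 ± 0.82 for Apoa2 and -4.75 ± 0.98 for Apoc3 (J02596cds_g_at; limma adjusted p = 0.0286 and 0.0338), 2 of 10 where 1.45% of all passed. Both calls were lost without Targretin lung array 1 or 2 or 4HPR lung array 2, 3 or 4, and 4 passed without diet lung array 2. The hepatocyte markers differed between the same groups, at 0.347 to 0.743% of diet liver with Targretin and 2.16 to 12.6% with 4HPR, and with their level as a covariate 0 of 10 passed by limma. That covariate, the mean log2 marker level, separated the groups, at 7.92 to 8.40 with Targretin and 9.95 to 12.4 with 4HPR. The part of hepatocyte RNA in these differences was not tested. Apoa2 and this Apoc3 probe set were under the 40th percentile on all 3 Targretin arrays, so the differences were at least 7.99-fold and 10.3-fold, taken against that percentile. For Targretin against 9cRA and 9cRA against 4HPR 0 of 10 passed, where 0.0168% and 0% of all did, with 3 and 1 at an unadjusted p under 0.05.

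**Figure D4:**
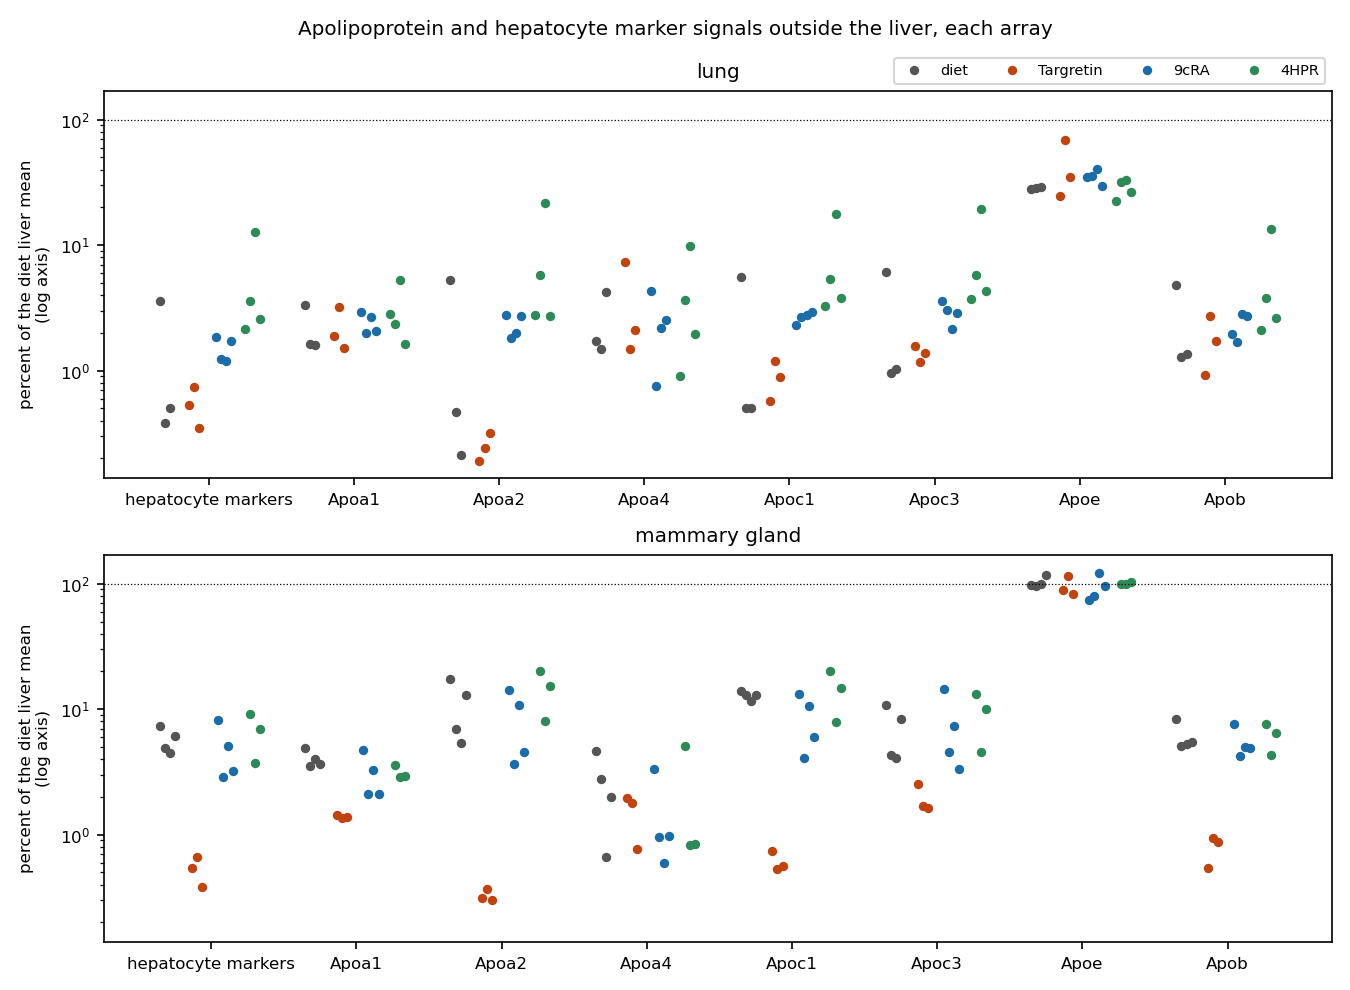
Signal on each lung and mammary gland array as a percent of the diet liver mean of the same probe set (log axis, dotted line at 100%), for the median of 16 hepatocyte markers and for the 7 apolipoproteins; colours are the diet and agent groups. In mammary gland the Targretin arrays of Apoa1, Apoa2, Apoc1, Apoc3 and Apob lie below the diet arrays as the hepatocyte markers do, while Apoe lies around 100%, from 74.1 to 123% over all groups.

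Whether the change with an agent differed between organs was tested in a fit of all 43 arrays over the 5120 probe sets tested in every organ. With Targretin 7 of the 10 apolipoprotein probe sets passed, where 13.3% of all did. The change in liver exceeded that in mammary gland by 4.97 ± 0.85 (SE) for Apoa2, 4.49 ± 0.71 for Apoc1 and 2.54 ± 0.57 for Apob (limma adjusted p = 9.09e-05, 3.31e-05 and 0.00211), while no liver minus lung difference passed, the smallest adjusted p being 0.273 for the Apob probe set rc_AA997806_at. For Apoe neither probe set passed (adjusted p of the F test 0.475 and 0.210). With 9cRA and 4HPR 0 of 10 passed, where 0.371% and 0% of all did. The Apoa2 difference rests on Targretin signals in mammary gland that were under the 40th percentile, so its size is approximate. The falls of the hepatocyte markers in mammary gland given above apply to these organ differences too.

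Among other genes of lipoprotein metabolism few changed in liver. Of 5 other apolipoproteins and lipoprotein-bound proteins tested, 1 passed with Targretin, Apoh (beta-2-glycoprotein I, -0.39 ± 0.11 SE), and 0 with 9cRA or 4HPR; the median changes were -0.31, 0.03 and 0.09 beside -0.02, -0.01 and -0.10 over all probe sets. Of 6 genes of lipoprotein assembly and secretion, Apobec1, the enzyme that edits the Apob transcript, rose with Targretin by 0.86 ± 0.24 (limma adjusted p = 0.0298) and differed by 0.63 ± 0.23 with 9cRA (adjusted p = 0.119). Of 4 genes of high-density lipoprotein remodelling, Lipc (hepatic lipase) fell with 4HPR by 0.55 ± 0.11 (adjusted p = 0.00988). Of 4 lipoprotein receptors tested, Sdc1, a syndecan that binds remnant particles, fell with 9cRA by 0.71 ± 0.15 (adjusted p = 0.00897).

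Of 28 factors known at apolipoprotein promoters and tested in liver, 3 were higher and 3 lower with Targretin, 1 and 1 with 9cRA, and 1 and 0 with 4HPR, where 11.1%, 5.16% and 2.78% of all probe sets passed. Their median changes were 0.14, 0.07 and 0.00. Nr0b2, the small heterodimer partner, a repressor of other nuclear receptors, rose by 2.13 ± 0.22 (SE; limma adjusted p = 6.51e-06) with Targretin and was -0.00 ± 0.20 with 9cRA (adjusted p = 0.998). Nr1h4, the bile acid receptor, fell by 1.09 ± 0.21 with Targretin (adjusted p = 0.00202), and Nr1d2, a repressor of the clock system, fell by 0.90 ± 0.18 with Targretin and 0.71 ± 0.17 with 9cRA (adjusted p = 0.00316 and 0.0192). Onecut1, a liver transcription factor, fell by 2.32 ± 0.57 with Targretin (adjusted p = 0.0128). The others that passed, named after their values were seen, were Srebf1 and Rxrg, higher with Targretin, Foxa1, higher with 9cRA, and Egr1, higher with 4HPR. Of the 5 measured neighbours of the Apoa1 and Apoe gene clusters 0 passed with any agent in liver by limma.

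Outside the liver the same lists gave calls with Targretin, where 2.39% of all probe sets passed in lung and 13.1% in mammary gland; with 9cRA and 4HPR no probe set of any kind passed there by limma. With Targretin in mammary gland, Apoh fell by 4.91 ± 0.42 and Pon1, a paraoxonase carried on high-density lipoprotein, fell by 4.18 ± 0.31 (SE; limma adjusted p = 2.13e-06 and 4.76e-07), 2 of 6 tested, beside hepatocyte markers that fell as given above. Both, and Lipc and Asgr1, were under the 40th percentile on all 3 Targretin arrays, so the falls were at least 5.68-fold for Apoh, 9.03-fold for Pon1, 1.89-fold for Lipc and 1.73-fold for Asgr1, taken against that percentile. Lipc fell by 2.92 ± 0.38, whereas Scarb1, the receptor that takes cholesteryl ester from high-density lipoprotein, rose by 1.92 ± 0.41 (adjusted p = 0.000170 and 0.00927). P4hb, a subunit of the triglyceride transfer protein complex, rose by 1.74 ± 0.31 (adjusted p = 0.00307). The asialoglycoprotein receptor gene Asgr1 was lower, and of 20 promoter factors Usf1 and Nr1h2 were higher, as was Srebf1, which was named after its value was seen. In lung, Srebf1, a regulator of lipid synthesis, rose by 2.29 ± 0.41 and Rara, a retinoic acid receptor, by 0.84 ± 0.20 with Targretin (adjusted p = 0.0269 and 0.0452).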

How the data were processed

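Per the submitters' processing notes the deposited values are MAS5 signals, an intensity on a linear scale for each probe set; gene symbols came from the platform table, and any other upstream step is not given in the sources used here. The table listed 8799 probe sets, from which 59 controls were dropped, and 7006 had 1 gene symbol. All columns were matched to samples by their labels. Signals plus 38.1, the 10th percentile of all values, were converted to log2, and each organ was fitted with its 4 groups in limma 3.58.1 (lmFit, eBayes with trend, R 4.3.3), with Benjamini-Hochberg adjustment over the 6084 liver, 5935 lung and 6059 mammary gland probe sets tested; the fits were tested on simulated data. Confidence intervals are at 95%. The number of arrays limits the precision.

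The members, gene lists, alternatives and the rule for named genes were chosen with earlier results of these data known. Under that rule up to 4 passing genes of each list are named in liver and up to 2 elsewhere, any further name being marked as chosen after its value was seen, and the genes most like each member are those with the highest correlation over liver arrays; 1 of the 3 found is named. Apoe, Apoc1 and Apoa4 upstream sequences are from RefSeq. Arrays of the same number were not paired. Within an organ, residuals of same-number arrays from different groups correlated with a median of -0.000861 in liver, 0.0256 in lung, and 0.0124 for the mammary gland. The ranges were -0.103 to 0.0665, -0.386 to 0.291 and -0.179 to 0.183. Pairing of organs by number was not examined, and the organ comparisons treated all arrays as separate. No 2 arrays were identical. The alternatives were quantile normalization, no filter, a pseudocount 4 times larger, a replicate block, array quality weights, only the 2 groups compared, left-out arrays and a hepatocyte marker covariate.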

Additional observations from a re-analysis of the deposited data

Results flagged for a closer look

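Each of the 7 genes was checked in each of the 7 groups of 4 arrays, 49 checks in all. In 6 of them 1 array lay far from the rest, where chance alone gives about 5%; the checks are not independent, since 4 of the 6 concern the same array. On 4HPR lung array 3 the signal of Apoa2 was 12479.1, of Apoc1 12942.9, of Apoc3 17114.4 and of Apob 4207.6, each the highest of its group by a wide gap, on the array whose hepatocyte marker median was 12.6% of diet liver. On 9cRA mammary gland array 1 the signal of Apoa4 was 120.5, low in absolute terms, and on diet mammary gland array 1 the signal of Apob was 2636.6. That array also had the highest hepatocyte marker median of its group, 7.35%. The part of hepatocyte RNA in these values was not tested.

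The change with Targretin differed between liver and mammary gland by the test of the difference, by 4.97366 for Apoa2, 4.48503 for Apoc1 and 2.54345 for Apob in log2 units (limma adjusted p = 9.09e-05, 3.31e-05 and 0.00211). In each case the Targretin arrays of mammary gland lay below the diet arrays, 3 of 3, while in liver the changes were 0.35, 0.19 and -0.21 and did not pass. The Apoa2 signals with Targretin in mammary gland were under the 40th percentile of their arrays, so the size of its difference is approximate. The hepatocyte markers fell in the same mammary gland arrays.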

How the results depend on the processing

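Counts are apolipoprotein probe sets that passed. The share over all probe sets is not given for each alternative, so a changed count is not shown to be particular to these genes. Quantile normalization changed them from 6 to 3 for 9cRA and from 1 to 4 for Targretin against diet in liver, from 1 to 2 for Targretin against 4HPR and from 0 to 2 for Targretin against 9cRA there; it turned to -0.18 (Apob M27440_at, 9cRA), -0.0467 (Apoc1, 9cRA), -0.0460 (Apoe S76779_s_at, 9cRA), -0.0423 (Apoc1, 4HPR), -0.0172 (Apoc3 J02596cds_at, Targretin), -0.00779 and -0.0573 (Apoc3 J02596cds_at and J02596cds_g_at, 4HPR) in liver, and to 0.18 for Apoe X04979_at with Targretin in mammary gland. Array quality weights gave 5 in liver and 5 in lung for 4HPR against diet, 4 for 9cRA in lung, 2 for Targretin in liver, 2 for Targretin against 9cRA in liver, 7 and 4 for the organ differences of 4HPR and 9cRA, and -0.0249 for Apob with 9cRA in liver. With the replicate block, Targretin against 4HPR gave 0 in liver and 1 in lung; the calls of Apoa2 with 9cRA in liver (adjusted p = 0.0649 by limma) and of Apoa1 M00001_i_at with Targretin in mammary gland (0.0647) were lost, and no other count moved by over 1.5 times. Without a filter Targretin against 4HPR in liver gave 0 and Apoa2 with 9cRA in liver was lost (0.0628), and with the larger pseudocount Targretin against 9cRA in liver gave 1. Fits of only the 2 groups compared gave 10 for 9cRA and 3 for Targretin in liver, 0 for Targretin against 4HPR in liver and 3 for Targretin against 9cRA in lung.

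The hepatocyte covariate gave 0 for Targretin in mammary gland against diet, 9cRA and 4HPR and against 4HPR in lung, and turned Apoa1 to 0.45, Apoc3 to 2.66 (J02596cds_at) and 0.0836 (rc_AI169758_at) in mammary gland and Apoc3 with 4HPR in lung to -0.0744. In the comparisons that gave 0 the covariate separated the Targretin arrays from the others, and the part of hepatocyte RNA was not tested. Without diet lung 2 and 4HPR lung 3, counts in lung were 4 (9cRA), 4 (4HPR), 3 (Targretin against 9cRA) and 4 (Targretin against 4HPR). Without the 4 arrays in doubt they were 2 for Targretin in liver, 2 for Targretin against 9cRA and for Targretin against 4HPR 0 in liver as well as lung and 5 for mammary gland, 4 for the organ difference of Targretin, and -0.0119 for Apob with 9cRA in liver. The cause of these shifts was not tested.

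Leaving out 1 array gave 2 to 5 for 4HPR and 1 to 3 for Targretin in liver, 0 to 4 for 4HPR and 0 to 1 for 9cRA in lung, and 6 to 10 for Targretin in mammary gland. The counts over all probe sets moved in the same fits. They were 98 to 281 for 4HPR and 420 to 891 for Targretin in liver. In lung they were 0 to 80 for 4HPR and 0 to 38 for 9cRA, and in mammary gland 338 to 1056 for Targretin. Between agents it gave 0 to 1 in liver tissue, 0 to 4 for lung and 5 to 8 for mammary gland for Targretin against 4HPR, and 0 to 3 in liver and 0 to 2 in lung for Targretin against 9cRA; organ differences gave 0 to 5 for 4HPR and 0 to 3 for 9cRA. The highest lung and organ-difference counts came without diet lung array 2. The highest liver counts came without 4HPR liver array 4, apart from Targretin against 4HPR, where the call was lost without that array. The 6 came without Targretin mammary gland array 2. The 5 for Targretin against 4HPR in mammary gland came without Targretin array 2 or 3 or 4HPR array 2 or 4. Liver values ranged from -0.13 to 0.0943 for Apob with 9cRA, and with Targretin from -0.0203 to 0.21 for Apoc3 (J02596cds_at), -0.0491 to 0.20 for Apoe S76779_s_at and -0.11 to 0.24 for X04979_at.

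Signal near background limits Apoa4 outside liver, the dim Apob probe sets, and Apoa2, Apoa1 M00001_i_at and Apob rc_AA997806_at with Targretin in mammary gland, and the 3 or 4 arrays of a group limit precision everywhere.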
